A study of Mus musculus with 6 samples.

Results

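The interferon regulatory factors (IRFs) are transcription factors that switch on interferon genes and the genes that interferons induce. The family genes described here are Irf1, Irf2, Irf3, Irf4, Irf5, Irf7, Irf8 and Irf9, which are 8 of the 54309 genes in the deposited table. They were picked out by gene symbol, with earlier results of these data known, and the transcript values of each gene were summed by its Ensembl identifier. The measurements are RNA-seq levels in sensory ganglion cells of mice that had received a leptin vector or a control vector before a spinal cord injury.

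One group of mice had received AAV-Leptin-GFP, an adeno-associated virus encoding leptin and GFP, in both sciatic nerves. The control group received AAV-GFP, the same kind of vector with GFP alone. All animals were C57bl/6 males, 8 to 10 weeks of age, and all had a dorsal column axotomy, a cut through the central branches of the sensory axons, 4 weeks after the vector. Dorsal root ganglia (DRG) of lumbar levels 4 to 6 were taken 24 hours after the cut, and their dissociated cells were passed over an albumin gradient that enriches neurons. Each group has 3 libraries, numbered 1 to 3. The labels name neither the promoter of the vectors nor whether a library holds 1 animal or a pool, so p-values measure only the spread between these libraries. GFP and the vector are common to both groups, and no uninjured or vector-free library was analysed here, so each comparison is of leptin on top of vector and injury.

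IRF proteins share a DNA-binding domain that reads GAAA repeats, the core of the interferon-stimulated response element (ISRE). Irf3 and Irf7 are activated by kinases downstream of nucleic acid sensors and start transcription of type I interferons, whereas Irf9 binds DNA in the complex that answers them. Irf1 is itself an immediate target of STAT factors downstream of cytokine receptors and activates antigen presentation genes, Irf2 competes with it for DNA, and Irf4, Irf5 and Irf8 act mainly in lymphoid and myeloid cells.

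Values are TPM, an abundance corrected for transcript length and scaled so that every library sums to 1000000, which lets levels be compared between genes. TPM holds no read numbers and the depth of each library is unknown. Each log2 fold change is the mean difference in log2(TPM + 1), AAV-Leptin-GFP minus AAV-GFP, and understates changes of low genes. Adjusted p-values come from limma over the 15108 genes whose mean reached 1 TPM, and a gene was called at an adjusted p under 0.05.

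Lep itself was listed at 0.751, 0.547 and 3.56 TPM with AAV-Leptin-GFP and at 0 in each AAV-GFP library. The 12 neuronal markers, among them Rbfox3, Nefl and Scn10a, summed to 23350 to 24031 TPM with AAV-Leptin-GFP and 23742 to 25163 TPM with AAV-GFP. Other cells were present in both groups: the satellite glia markers summed to 7253 to 7961 TPM with AAV-Leptin-GFP and 8099 to 9256 TPM with AAV-GFP. Schwann cell markers summed to 915 to 1009 TPM with AAV-Leptin-GFP and 1032 to 1085 TPM with AAV-GFP, and erythroid markers to 240 to 1726 TPM with AAV-Leptin-GFP (the highest in library 3) and 170 to 257 TPM with AAV-GFP. The part of these markers in the results was not tested. No gene of the 11 marker lists was called, where 1.54% of all tested genes were called higher and 0.0662% lower. No marker was listed at 0 in every library. In such mixed tissue, fewer cells of a type and less RNA per cell cannot be told apart.

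Of the 8 family genes, Irf1 was the one that rose with AAV-Leptin-GFP. Irf1 had 33.1, 41.0 and 29.7 TPM in AAV-Leptin-GFP libraries 1, 2 and 3, against 15.8, 10.8 and 15.0 TPM in the AAV-GFP libraries. Every AAV-Leptin-GFP library lay above every AAV-GFP library. The means were 34.6 ± 5.82 and 13.8 ± 2.70 TPM (SD, n = 3 each), a ratio of 2.50. The log2 fold change of Irf1 was 1.27 (SE 0.16, 95% interval 0.88 to 1.65, limma adjusted p = 0.0238). Over the 7 family genes tested, 1 was called higher and 0 lower, where 1.54% of all tested genes were called higher and 0.0662% lower. At an unadjusted p under 0.05, 2 family genes were higher, Irf1 and Irf3, and 0 lower, against 11.3% and 8.19% of all tested genes.

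The Irf1 call depended on which libraries were kept, while its direction did not. Without AAV-GFP library 1 it stayed past the threshold (limma adjusted p = 0.0200). It missed the threshold without AAV-Leptin-GFP library 1, 2 or 3 (0.114, 0.146 and 0.0694) and without AAV-GFP library 2 or 3 (0.0951 and 0.131), with log2 fold changes of 1.11 to 1.37 throughout. Counting protein-coding transcripts alone gave a log2 fold change of 1.14 and an adjusted p of 0.0138 by limma.

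**Figure D1:**
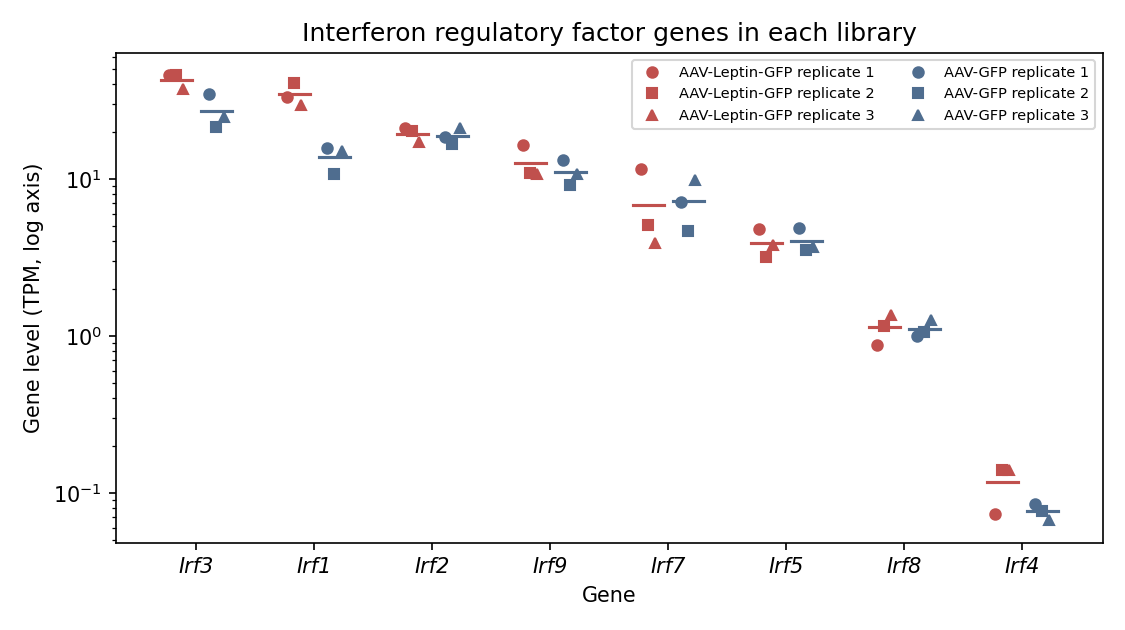
Level of each of the 8 family genes (TPM, log axis) in every library, with the 3 AAV-Leptin-GFP libraries left of the 3 AAV-GFP libraries and genes in order of mean level. The groups separate for Irf1, from 29.7 TPM upward with AAV-Leptin-GFP and up to 15.8 TPM with AAV-GFP, and for Irf3, and intermingle for the other genes.

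Irf1 lies on chromosome 11 (GRCm38 chr11:53770014-53778374, plus strand, ENSMUSG00000018899). The stretch before its first exon is shown because it holds a GAS motif, the gamma-activated site TTCNNNGAA that STAT dimers read. It is the first of 2 RefSeq promoters of Irf1 on GRCm38.p6 (chr11:53769764-53770063, plus strand), 250 bases before to 50 after the start, with the GAS motif in capitals.
Irf1 promoter: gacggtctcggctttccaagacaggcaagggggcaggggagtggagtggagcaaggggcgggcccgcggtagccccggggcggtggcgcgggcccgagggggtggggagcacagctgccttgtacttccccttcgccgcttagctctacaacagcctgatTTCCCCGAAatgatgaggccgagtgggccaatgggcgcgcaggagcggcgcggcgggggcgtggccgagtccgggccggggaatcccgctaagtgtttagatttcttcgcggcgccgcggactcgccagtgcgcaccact
The motif starts 90 bases before the start site. All 8 family genes were found in the RefSeq table, with 11 promoters between them, which were searched on both strands for GAS, for the ISRE as a pair of GAAA half-sites separated by 2 bases of any kind, and for the AP-1 motif as TGANTCA. A GAS motif occurred in 3 of the 11 promoters, 1 each of Irf1, Irf2 and Irf8, an ISRE in that of Irf2, and an AP-1 motif in none of them. Among all 32851 promoters of the table, 8.30% held GAS, 3.44% the ISRE and 7.81% AP-1. The Irf2 stretch (chr8:46739499-46739534, plus strand) holds the ISRE and GAS in capitals, and the Irf8 stretch (chr8:120736182-120736218, plus strand) holds 2 GAS motifs in capitals.
Irf2 promoter stretch: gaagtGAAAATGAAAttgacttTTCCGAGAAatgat
Irf8 promoter stretch: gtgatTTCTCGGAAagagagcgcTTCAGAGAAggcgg
Irf2 and Irf8 were not called, and their values overlapped between the groups. Whether any of these motifs is bound or acts in these cells was not tested.

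Apart from Irf1-210, the Irf1 transcripts start in 1 of 2 alternative first exons. The 5 transcripts from the upstream first exon, next to the promoter printed above, summed to 21.7, 29.8 and 22.5 TPM with AAV-Leptin-GFP against 13.6, 8.34 and 14.2 TPM with AAV-GFP. The 4 transcripts from the downstream first exon summed to 4.99, 4.01 and 4.27 TPM with AAV-Leptin-GFP against 1.35, 2.41 and 0.693 TPM with AAV-GFP. Both sums were higher in every AAV-Leptin-GFP library than in any AAV-GFP library. They were formed after values had been seen and were not tested. The downstream difference was not shared by Irf1-201, a coding transcript of 2069 bases from that exon. Irf1-201 had 3.12, 0 and 0.351 TPM with AAV-Leptin-GFP against 0.892, 1.77 and 0.693 TPM with AAV-GFP, with overlapping groups.

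Most of the gene's TPM came from Irf1-202, a protein-coding transcript of 2137 bases from the upstream exon. It had 21.7, 29.4 and 22.4 TPM with AAV-Leptin-GFP against 12.4, 8.11 and 14.2 TPM with AAV-GFP, groups that did not overlap (log2 fold change 1.04, SE 0.22, limma adjusted p = 0.0748). Irf1-207, a short coding transcript of 525 bases from the downstream exon, was listed at 1.87, 3.70 and 3.71 TPM with AAV-Leptin-GFP and at 0 in each AAV-GFP library. It passed the 1 TPM filter through the AAV-Leptin-GFP libraries alone, so no test is given for it, nor a fold against a value listed at 0. Irf1-210 is a retained-intron transcript, a class of incompletely spliced RNA that is not translated into the full protein, and it keeps 503 of the 717 bases of intron 3. It had 6.39, 7.26 and 3.003 TPM with AAV-Leptin-GFP against 0.846, 0 and 0.131 TPM with AAV-GFP. Like Irf1-207 it passed the filter through the AAV-Leptin-GFP libraries alone, so its values are a description. The end of that intron is shown because its sequence sets Irf1-210 apart from the spliced transcripts. Intronic bases are in capitals and the first 20 bases of the next exon in lower case (GENCODE M21 transcript sequence, GRCm38 chr11:53773576-53773675, plus strand).
Irf1-210 intron 3 end: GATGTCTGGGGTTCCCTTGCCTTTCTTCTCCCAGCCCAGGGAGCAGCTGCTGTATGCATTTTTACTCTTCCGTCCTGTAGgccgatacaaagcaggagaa

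Irf2, which competes with Irf1 for the same sites, was not called. Irf2 had 20.97, 20.04 and 17.1 TPM with AAV-Leptin-GFP against 18.5, 16.8 and 21.1 TPM with AAV-GFP, with interleaved libraries. Its log2 fold change was 0.04 (SE 0.11, 95% interval -0.21 to 0.30, limma adjusted p = 0.877), and the whole interval lies below that of Irf1. The ratio of the mean TPM, AAV-Leptin-GFP over AAV-GFP, was 1.03 for Irf2.

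Irf3, the widely expressed substrate of the kinase Tbk1, had the highest mean of the family with all transcripts summed, 34.9 TPM over the 6 libraries. Irf3 (ENSMUSG00000003184, chr7:44997648-45002848, plus strand) had 45.7, 45.5 and 37.5 TPM with AAV-Leptin-GFP against 34.7, 21.4 and 24.9 TPM with AAV-GFP. The groups did not overlap, but the lowest AAV-Leptin-GFP library stood close to the highest AAV-GFP library. The means were 42.9 ± 4.67 and 27.0 ± 6.87 TPM (SD, n = 3 each), a ratio of 1.59. The log2 fold change of 0.67 missed the threshold (SE 0.17, 95% interval 0.27 to 1.07, limma unadjusted p = 0.00497, adjusted p = 0.0951). Without AAV-GFP library 1 it was 0.86 and passed (limma adjusted p = 0.0210). In that setting 409 of all tested genes were called higher, against 233 with every library. It was the 1 of 15 alternatives in which Irf3 passed. Irf3 missed the threshold without AAV-GFP library 2 or 3 (limma adjusted p = 0.257 and 0.245). Leaving out AAV-Leptin-GFP library 1, 2 or 3 gave limma adjusted p = 0.2104, 0.2661 and 0.1496. Irf1 and Irf3 were 2 of the 7 tested family genes with every AAV-Leptin-GFP library above every AAV-GFP library, and none lay below, against 13.3% and 11.9% of all tested genes.

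The Irf3 difference lay in its transcripts outside the protein-coding class, all of them retained-intron transcripts. Protein-coding Irf3 transcripts summed to 14.5 ± 2.20 TPM with AAV-Leptin-GFP and 16.0 ± 1.90 TPM with AAV-GFP (SD, n = 3 each), and fitted alone they gave a log2 fold change of -0.11 (limma adjusted p = 0.721). The other Irf3 transcripts summed to 28.4 ± 3.20 TPM with AAV-Leptin-GFP and 11.002 ± 4.97 TPM with AAV-GFP. Their share of Irf3 TPM was 68.8%, 63.1% and 66.8% with AAV-Leptin-GFP against 47.6%, 32.2% and 38.5% with AAV-GFP. The mean share was 26.8 percentage points higher with AAV-Leptin-GFP (exact two-sided permutation p = 0.1, the smallest that 3 against 3 libraries allow, 0.24 after Benjamini-Hochberg adjustment over 6 genes). Shares were higher in all AAV-Leptin-GFP libraries than in any AAV-GFP library for 30.4% of the 9844 genes with both kinds of transcript, and lower in all for 1.51%. Over those genes the median difference was 1.68 percentage points, and 148 of them (1.503%) reached that of Irf3. Retained-intron transcripts as a class took 3.60%, 3.75% and 3.24% of all TPM with AAV-Leptin-GFP against 2.50%, 2.10% and 2.27% with AAV-GFP. The part of this class-wide difference in the Irf3 result was not tested.

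**Figure D2:**
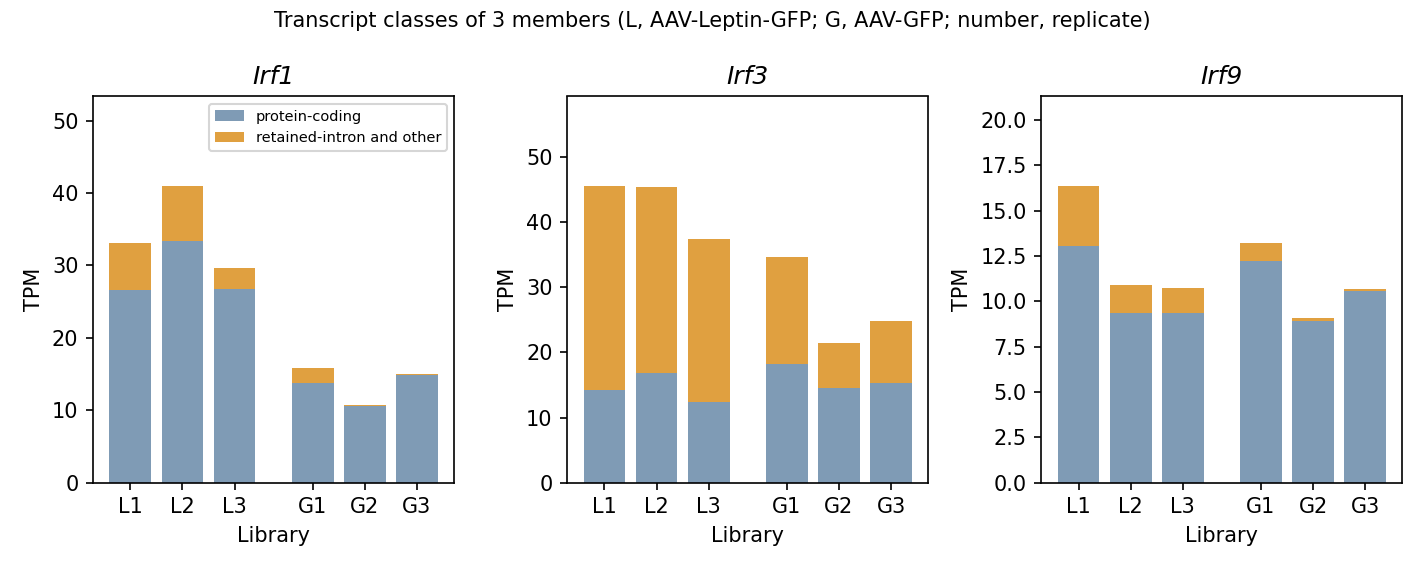
TPM of protein-coding transcripts (lower part of each bar) and of retained-intron and other transcripts (upper part) of 3 family genes, by library (L, AAV-Leptin-GFP; G, AAV-GFP). The coding part of the Irf1 bars is taller with AAV-Leptin-GFP, whereas in Irf3 the coding part has a mean of 14.5 TPM with AAV-Leptin-GFP and 16.0 TPM with AAV-GFP and the upper part differs.

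Single Irf3 transcripts differed in opposite directions, without any passing the threshold. Irf3-202, a protein-coding transcript, had 2.19, 3.94 and 3.28 TPM with AAV-Leptin-GFP against 7.36, 9.93 and 6.54 TPM with AAV-GFP, all lower (log2 fold change -1.12, SE 0.22, limma adjusted p = 0.0723). Irf3-201, also coding, had 0.430, 1.67 and 1.88 TPM with AAV-Leptin-GFP against 2.46, 2.05 and 3.38 TPM with AAV-GFP, all lower (log2 fold change -0.69, SE 0.33, limma adjusted p = 0.336). The coding transcript Irf3-213 overlapped between the groups (log2 fold change 0.61, SE 0.29, limma adjusted p = 0.337). Irf3-207, which keeps intron 5, had 9.61, 9.81 and 8.997 TPM with AAV-Leptin-GFP against 6.86, 5.10 and 4.65 TPM with AAV-GFP, all higher (log2 fold change 0.69, SE 0.15, limma adjusted p = 0.0780). Irf3-208 and Irf3-210 keep parts of intron 6, 235 and 286 of its 650 bases. Irf3-210 had 10.5, 7.91 and 5.32 TPM with AAV-Leptin-GFP against 3.79, 0.676 and 0.853 TPM with AAV-GFP (log2 fold change 1.81, SE 0.45, limma adjusted p = 0.101). Irf3-208 had 7.52, 7.38 and 8.24 TPM with AAV-Leptin-GFP against 4.10, 0.342 and 2.92 TPM with AAV-GFP (log2 fold change 1.54, SE 0.49, limma adjusted p = 0.163). In both of these the AAV-GFP libraries spread widely and all lay below the AAV-Leptin-GFP libraries.

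Irf3-206, a coding transcript with an alternative first exon that begins inside intron 1, had 4.84, 4.77 and 2.49 TPM with AAV-Leptin-GFP against 2.37, 0.502 and 1.68 TPM with AAV-GFP, also without overlap (log2 fold change 1.04, SE 0.37, limma adjusted p = 0.209).

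Introns 5 and 6 are shown because Irf3-207 keeps the one and Irf3-208 and Irf3-210 keep parts of the other. Both are from GENCODE M21 transcripts on the plus strand of GRCm38. Intron 5 (chr7:45000537-45000654) is printed whole in capitals with 10 exon bases in lower case on each side, and the end of intron 6 (chr7:45001593-45001692) has intronic bases in capitals and 20 exon bases in lower case.
Irf3 intron 5: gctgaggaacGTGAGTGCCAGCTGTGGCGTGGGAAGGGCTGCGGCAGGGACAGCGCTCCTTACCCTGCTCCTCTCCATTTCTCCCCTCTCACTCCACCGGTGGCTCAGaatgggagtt
Irf3-210 intron 6 end: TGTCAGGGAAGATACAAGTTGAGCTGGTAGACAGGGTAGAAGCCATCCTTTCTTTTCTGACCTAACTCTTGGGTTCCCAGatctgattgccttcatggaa
Intron 5 has 98 bases, a GC content of 65.3% and the usual GT and AG ends. Its length is not a multiple of 3, so keeping it shifts the reading frame. Among transcripts that either keep or remove intron 5, those that keep it held 38.9%, 33.6% and 33.1% of the TPM with AAV-Leptin-GFP against 26.1%, 26.2% and 22.5% with AAV-GFP. All 3 AAV-Leptin-GFP values were the higher ones. This ratio was chosen after values had been seen and was not tested.

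Over the family, 70 transcripts were in the table, 57 had a value above 0 in some library and 19 passed the filter. None was called higher or lower by limma, where 0.107% and 0.0238% of the 33615 transcripts tested were. At an unadjusted p under 0.05, 8 were higher and 2 lower, beside 12.3% and 6.01% of all tested transcripts. In 9 of the 19 every AAV-Leptin-GFP library lay above every AAV-GFP library and in 2 below, beside 15% and 9.59%. These counts include Irf1-207 and Irf1-210, which passed the filter through the group where they are high, and support nothing about the family. The 5 retained-intron transcripts among them, 4 of Irf3 and 1 of Irf1, were all above, as were 51.3% of the 4245 retained-intron transcripts tested. The 4 of Irf3 were also higher at an unadjusted p under 0.05, as were 50% of that class. Of the class, 0.306% were called at the adjusted p. The median log2 fold change of the whole class was 0.88, with Irf3-208 and Irf3-210 above it, Irf3-207 below it and Irf3-212 at 0.88 as well. Leaving out AAV-GFP library 1 brought 4 family transcripts past the threshold. Of these, Irf1-207 and Irf1-210 passed the filter through the AAV-Leptin-GFP libraries alone, so their passing supports nothing. The others were Irf3-207 and Irf3-210 (limma adjusted p = 0.0346 and 0.0298). In that setting 1196 of all tested transcripts (3.56%) were called higher, against 36 with every library.

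**Figure D3:**
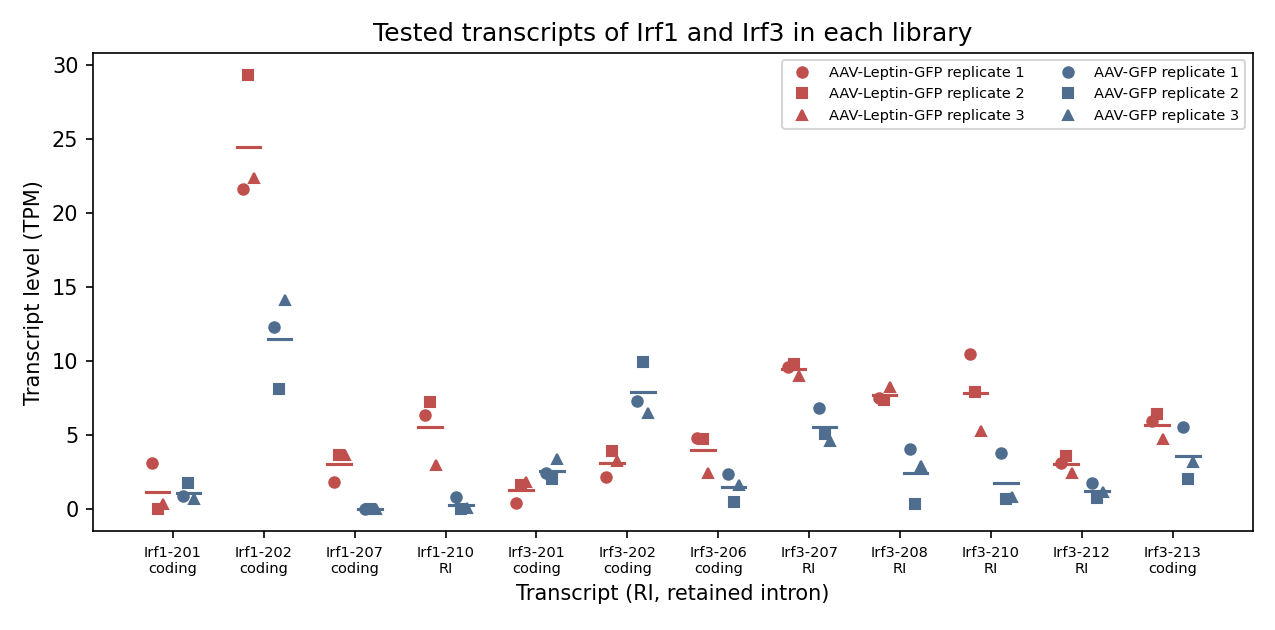
Level (TPM) of the tested Irf1 and Irf3 transcripts in each library, AAV-Leptin-GFP left of AAV-GFP, with the transcript class under each name (RI, retained intron). Irf1-202 and the retained-intron transcripts are higher in every AAV-Leptin-GFP library, and Irf3-202 is lower in each, at 2.19 to 3.94 TPM against 6.54 to 9.93 TPM with AAV-GFP.

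Reads of genes that overlap on opposite strands cannot be told apart unless strand was used in the quantification, which the sources used here do not state. Bcl2l12, which runs on the other strand over 1065 bases of the start of Irf3, had 3.52, 3.89 and 2.79 TPM with AAV-Leptin-GFP against 2.98, 3.33 and 3.53 TPM with AAV-GFP. Irf3-212, a retained-intron transcript of 3.17, 3.59 and 2.49 TPM with AAV-Leptin-GFP against 1.78, 0.771 and 1.17 TPM with AAV-GFP, lies wholly inside that overlap. Gm17334, on the other strand within Irf1, had 0.709, 0.679 and 0.528 TPM with AAV-Leptin-GFP against 0.516, 1.21 and 0.509 TPM with AAV-GFP. Both neighbours overlapped between the groups. The first exon of Irf3-206 (chr7:44998326-44998877) also lies in part inside the Bcl2l12 overlap, which reaches 44998712. Those of Irf3-201, Irf3-202, Irf3-207 and Irf3-213 lie wholly inside it.

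Irf7, the interferon-inducible partner of Irf3 (chr7:141262706-141266481, minus strand), varied more between libraries of a group than between groups. Irf7 had 11.5, 5.06 and 3.89 TPM with AAV-Leptin-GFP against 7.09, 4.67 and 9.80 TPM with AAV-GFP. The highest and the lowest of the 6 values were both in the AAV-Leptin-GFP group. Its log2 fold change was -0.14 with a wide interval (SE 0.37, 95% interval -1.01 to 0.73, limma adjusted p = 0.877), and the interval holds differences in both directions.

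Irf9, a DNA-binding subunit of the complex that answers type I interferons (chr14:55603571-55610030, plus strand), had 16.4, 10.9 and 10.7 TPM with AAV-Leptin-GFP against 13.2, 9.07 and 10.7 TPM with AAV-GFP. The groups overlapped, and library 1 was the highest in each. Its log2 fold change was 0.18 (SE 0.19, 95% interval -0.26 to 0.62, limma adjusted p = 0.652). The share of Irf9 TPM outside coding transcripts was 20.2%, 14.4% and 12.6% with AAV-Leptin-GFP against 7.44%, 1.77% and 1.339% with AAV-GFP. The groups did not overlap (exact permutation p = 0.1, adjusted 0.24), and 30.4% of the 9844 genes with both kinds of transcript were likewise higher. The AAV-GFP shares of Irf9 rest on low values, 0.982, 0.161 and 0.143 TPM outside coding transcripts. For Irf1 the share outside coding transcripts was 19.3%, 18.6% and 10.1% with AAV-Leptin-GFP against 13.1%, 2.09% and 0.875% with AAV-GFP. There the lowest AAV-Leptin-GFP library lay below the highest AAV-GFP library (exact permutation p = 0.2, adjusted 0.24). Coding Irf1 transcripts by themselves summed to 28.9 ± 3.89 TPM with AAV-Leptin-GFP and 13.0 ± 2.24 TPM with AAV-GFP (SD, n = 3 each), without overlap, whereas the coding sums of Irf3 overlapped.

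The members known from immune cells were low. Irf5, which acts downstream of Toll-like receptors in macrophages, had 4.80, 3.19 and 3.78 TPM with AAV-Leptin-GFP against 4.84, 3.51 and 3.65 TPM with AAV-GFP (log2 fold change -0.03, SE 0.17, 95% interval -0.41 to 0.36, limma adjusted p = 0.956). Irf8, a myeloid lineage factor, had 0.877, 1.16 and 1.37 TPM with AAV-Leptin-GFP against 0.996, 1.05 and 1.27 TPM with AAV-GFP (log2 fold change 0.01, SE 0.17, 95% interval -0.40 to 0.42, limma adjusted p = 0.979). Irf4, a lymphocyte factor, had 0.0734, 0.139 and 0.140 TPM with AAV-Leptin-GFP against 0.0848, 0.0765 and 0.0668 TPM with AAV-GFP and was too low to be tested. All 3 genes had overlapping groups. The 18 macrophage markers, from Csf1r to C1qa and Lyz2, summed to 113 to 124 TPM with AAV-Leptin-GFP and 105 to 142 TPM with AAV-GFP. Of the 17 tested none was called (median log2 fold change -0.09), where 1.54% of all tested genes were called higher and 0.0662% lower. The B lymphocyte markers summed to 2.36 to 5.89 TPM with AAV-Leptin-GFP and 2.65 to 9.36 TPM with AAV-GFP.

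**Figure D4:**
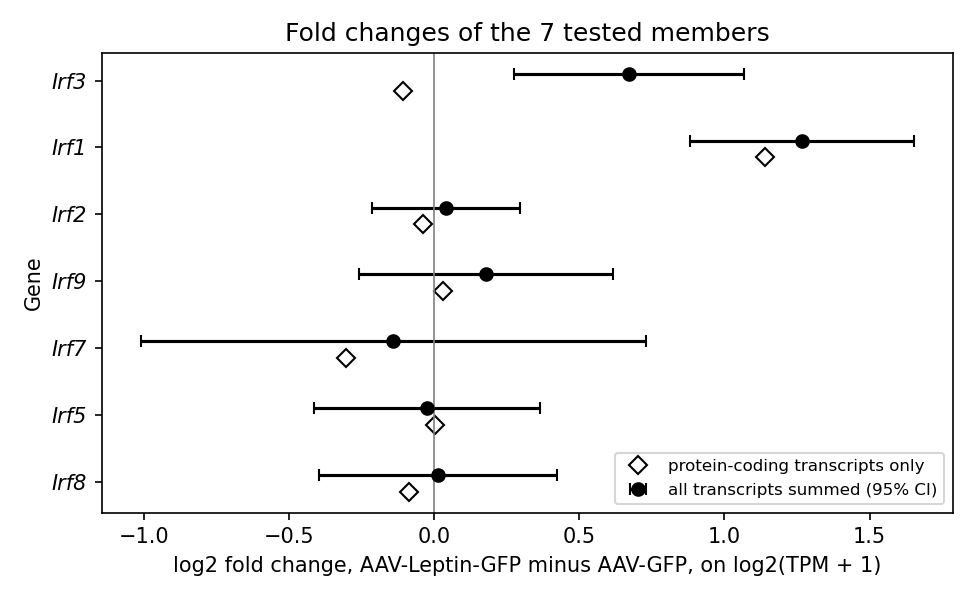
Log2 fold change (AAV-Leptin-GFP minus AAV-GFP, log2(TPM + 1) scale) of the 7 tested family genes with 95% intervals from limma, and, as open diamonds, the value from protein-coding transcripts alone. Irf1 stays at 1.14 with coding transcripts alone, whereas Irf3 is at 0.67 with all transcripts and at -0.11 with coding transcripts alone.

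Ordered by mean level over the 6 libraries, the family ran Irf3 at 34.9 TPM, Irf1 at 24.2, Irf2 at 19.1, Irf9 at 11.8, Irf7 at 6.9995, Irf5 at 3.96, Irf8 at 1.12 and Irf4 at 0.0968 TPM. That order is of all transcripts summed. Coding transcripts alone had means of 14.5 TPM with AAV-Leptin-GFP and 16.0 TPM with AAV-GFP for Irf3. For Irf2 they had 17.4 and 18.4 TPM, and for Irf1 28.9 and 13.0 TPM, so Irf3 did not lead in coding transcripts. The range over libraries of Irf3 (21.4 to 45.7 TPM) overlapped that of Irf1 (10.8 to 41.0 TPM), and Irf1 overlapped Irf2 (16.8 to 21.1 TPM). Irf9 (9.07 to 16.4 TPM) lay below Irf2 in every library. Irf7 (3.89 to 11.5 TPM) overlapped both Irf9 and Irf5 (3.19 to 4.84 TPM), while Irf8 (0.877 to 1.37 TPM) and Irf4 (0.0668 to 0.140 TPM) stood apart below them. Irf1 was above Irf2 in each AAV-Leptin-GFP library and below it in each AAV-GFP library.

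Genes with profiles closest to a member over the 6 libraries were found by Euclidean distance between centred log2(TPM + 1) values. For Irf1 they were Arglu1, Gm17024 and Tia1, at distances of 0.188, 0.195 and 0.220. Arglu1 and Tia1 encode RNA-binding proteins that take part in splicing. The log2 fold changes of Arglu1, Gm17024 and Tia1 were 1.17, 1.23 and 1.41, which their choice by likeness to Irf1 fixes, so they are a description. For Irf3 they were Traf7, Dnm2 and Gm7694 (0.113, 0.141 and 0.160), and for Irf9 4632404H12Rik, Gdf9 and Parp12 (0.0963, 0.134 and 0.148). Nearness here describes these 6 libraries only.

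Upstream of the family, the interferon genes themselves were listed at or near 0. Of 21 interferon genes, 19 were listed at 0 in all 6 libraries, Ifnb1 among them, and none reached the filter. Ifng, the type II interferon, was listed at 0, 0.0797 and 0.0906 TPM with AAV-Leptin-GFP and at 0.0728, 0 and 0.387 TPM with AAV-GFP. The receptors were expressed in both groups, and 0 of 5 tested were called in either direction (2 above and 3 below 0, median log2 fold change -0.08). Ifnar1 and Ifnar2, the type I receptor chains, had log2 fold changes of 0.00 and -0.25 (limma adjusted p = 0.998 and 0.182), and Ifngr1 and Ifngr2, the type II chains, -0.08 and 0.01 (limma adjusted p = 0.659 and 0.937).

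Among 13 tested genes of receptor signalling, Socs3, the feedback inhibitor of Janus kinases, rose and none was called lower (median log2 fold change 0.04). The shares called over all tested genes were 1.54% higher and 0.0662% lower. Socs3 had 109, 131 and 102 TPM with AAV-Leptin-GFP against 51.9, 46.5 and 45.7 TPM with AAV-GFP (log2 fold change 1.22, SE 0.10, limma adjusted p = 0.00835). It missed the threshold without AAV-GFP library 2 or 3 or AAV-Leptin-GFP library 1 (0.0839, 0.0793 and 0.0501), and with no filter on low values (0.0502). Stat2, a transducer of interferon signals, differed by 0.15 on the log2 scale (SE 0.16, limma adjusted p = 0.661).

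The routes from sensors to Irf3, Irf5 and Irf7 held no called gene, where 1.54% of all tested genes were called higher and 0.0662% lower. Of 8 sensors tested, 1 was above and 7 below 0 (median log2 fold change -0.12), and the one with the smallest p was the endotoxin receptor Tlr4 (log2 fold change -0.36, limma adjusted p = 0.367). Of 19 adaptors and kinases, 14 were above and 5 below 0 (median 0.07), led by the kinase Irak1 (log2 fold change 0.41, limma adjusted p = 0.155). Among 18 partners and regulators of IRFs, Junb, an AP-1 subunit, rose (log2 fold change 0.71, SE 0.10, limma adjusted p = 0.0268), with 16 above and 2 below 0 (median 0.16). Junb had 131, 149 and 117 TPM with AAV-Leptin-GFP against 85.7, 82.1 and 73.3 TPM with AAV-GFP. Its call was lost without AAV-GFP library 2 or 3 (limma adjusted p = 0.127 and 0.136) or AAV-Leptin-GFP library 1, 2 or 3 (0.121, 0.137 and 0.0603), with no filter on low values (0.0824) and with no mean-variance trend (0.0621).

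Downstream, 1 of the tested interferon-responsive genes passed the test. Of 30 tested targets of interferon gamma and Irf1, 1 was called higher and 0 lower, with 5 above and 25 below 0 and a median log2 fold change of -0.34. The median over all tested genes was -0.00016, and 1.54% of them were called higher and 0.0662% lower. The 40 listed targets summed to 1221, 909 and 907 TPM with AAV-Leptin-GFP against 1224, 1014 and 1569 TPM with AAV-GFP. These sums overlapped, and AAV-GFP library 3 had the highest. Il15ra, a chain of the interleukin 15 receptor, was the one that rose, with 7.11, 6.33 and 7.53 TPM with AAV-Leptin-GFP against 3.93, 4.03 and 4.29 TPM with AAV-GFP (log2 fold change 0.65, SE 0.10, limma adjusted p = 0.0342). That call was lost on leaving out any of the AAV-Leptin-GFP libraries 1, 2 and 3 (limma adjusted p = 0.127, 0.146 and 0.0922) or any of the AAV-GFP libraries 1, 2 and 3 (0.0541, 0.152 and 0.148). In all it held in 3 of 15 alternatives, and with coding transcripts alone the log2 fold change of Il15ra was 0.36 (limma adjusted p = 0.417). At an unadjusted p under 0.05, 1 of the 30 was higher and 4 were lower, beside 11.3% and 8.19% of all tested genes. The 4 were Psme1, Psmb9, Cd274 and Igtp. These 4, picked out by their values, encode proteasome parts, an immune checkpoint ligand and a GTPase, and their log2 fold changes were -0.41, -0.50, -0.45 and -0.51 (limma adjusted p = 0.162, 0.236, 0.205 and 0.249). Of 38 type I interferon-stimulated genes, 0 were called in either direction by limma, 11 were above and 27 below 0, and the median was -0.12. The 45 listed genes of that kind summed to 1092, 905 and 799 TPM with AAV-Leptin-GFP against 1085, 916 and 1021 TPM with AAV-GFP, with overlap. At an unadjusted p under 0.05, 1 of the 38 was higher and 2 lower, beside the same 11.3% and 8.19%. The smallest p belonged to Lgals3bp, a secreted glycoprotein, with 63.6, 56.5 and 52.7 TPM with AAV-Leptin-GFP against 68.0, 70.8 and 69.6 TPM with AAV-GFP (log2 fold change -0.27, SE 0.07, limma adjusted p = 0.107).

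**Figure D5:**
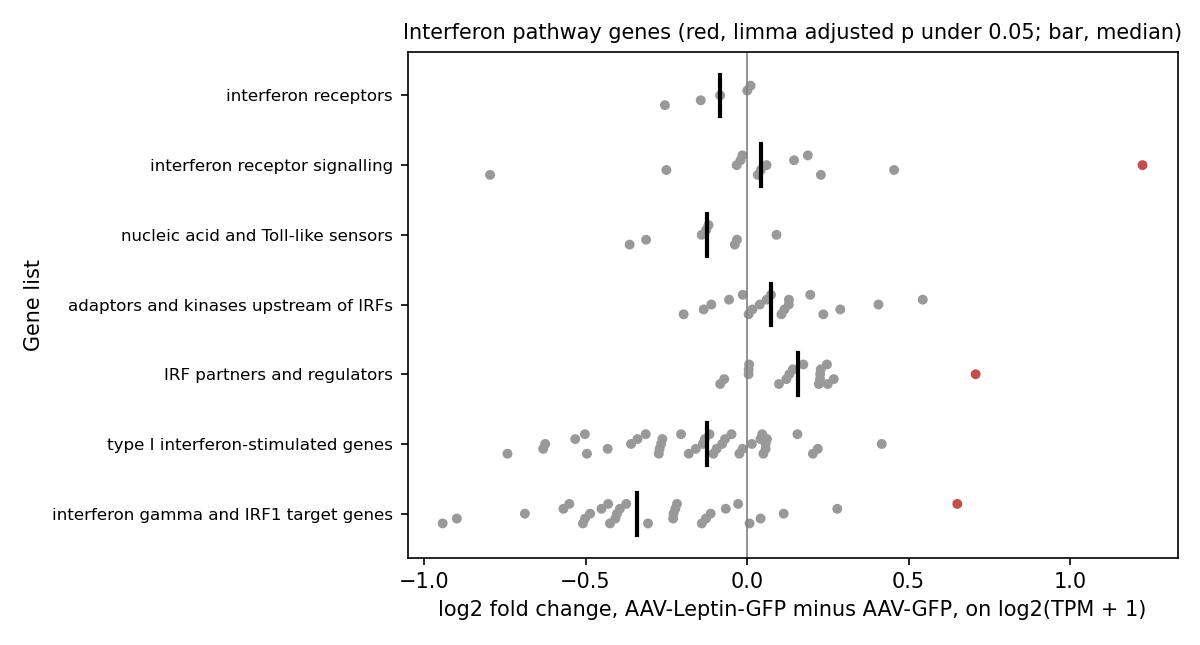
Log2 fold changes (AAV-Leptin-GFP minus AAV-GFP) of the tested genes in the pathway lists, 1 point a gene, red where limma's adjusted p was under 0.05, with a bar at each list's median. The red points are Socs3, Junb and Il15ra, and the target genes of interferon gamma and Irf1 have a median of -0.34. The TPM sums of these target genes overlapped between the groups.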

How the data were processed

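The authors deposited TPM values for 140789 Ensembl transcripts in 6 libraries, made from stranded polyadenylated RNA, per the labels' protocols. Salmon 1.6.0, DESeq2 1.34.0, FastQC 0.11.9 and Trim Galore 0.6.6, and the builds GRCm38 and mm10, are named per the submitters' processing notes, without role or order. The sources used here do not name the annotation. Coordinates, classes and lengths were looked up by identifier in GENCODE M21: all 70 family transcripts were found there, 0 with the same version suffix, so their structures may differ from those the values were made with. Salmon splits reads between transcripts that share sequence, so transcript values are less certain than gene sums. Depth is unknown.

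Transcript TPM were summed by gene. Genes (15108 of 54309) and transcripts (33615) with a mean of at least 1 TPM were fitted on log2(TPM + 1) in limma 3.58.1 (moderated, with a mean-variance trend, two-sided, treatment alone as term) in R 4.3.3, with data.table (1.17.8). Benjamini-Hochberg adjustment ran over all tested features, and calls needed an adjusted p under 0.05. Shares were compared with exact permutation tests. Motifs were searched with Python 3.11.15 and pandas 2.3.3, and plots drawn with matplotlib 3.10.9. The fits were tested on simulated data. Named genes were the family, Lep and Socs3, the called members of each pathway list or else that with the smallest p, interferon receptor chains, Stat2, Ifnb1, Ifng, and the nearest 3 genes of the 3 family genes with the smallest p. Members and lists were chosen with earlier results of these data known. Alternatives were the pseudocount, the filter, quantile normalization, removal of mitochondrial genes, coding transcripts alone, no trend, a replicate block and leaving out each library. The replicate numbers are shared by both groups, but same-numbered libraries did not deviate together, so the numbers were not used to pair them. Some genes that this rule names are not reported here. Outside it, Bcl2l12 and Gm17334 were named for their position, and Psme1, Psmb9, Cd274, Igtp, Ifi27 and the genes nearest to Irf7 were chosen after their values were seen.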

Additional observations from a re-analysis of the deposited data

How the results depend on the processing

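Irf1 was higher with AAV-Leptin-GFP in all 15 alternatives to the main setting and past the threshold in 7 of them (limma adjusted p from 0.0138 to 0.146). The count of family genes called higher, 1 in the main setting, was 0 with no filter on low values, with no mean-variance trend and with the replicate number as a block (Irf1 adjusted p = 0.0807, 0.0594 and 0.0674 by limma). It ranged from 0 to 2 on leaving out 1 library, and the count of family transcripts called higher ranged from 0 to 4, the highest without AAV-GFP library 1, where 3.56% of all tested transcripts were called higher. No family gene was called lower in any alternative. Calls over all genes were 233 higher and 10 lower in the main setting, 4 and 0 with no filter, 35 and 0 without the trend, 74 and 0 with the replicate block, 150 and 2 with a filter of 0.1 TPM, 335 and 3 without mitochondrial genes, 88 and 3 with coding transcripts alone. Without AAV-GFP library 1, 2 or 3 they were 409 and 11, 3 and 1, and 4 and 1, and without AAV-Leptin-GFP library 1, 2 or 3 they were 10 and 0, 18 and 0, and 15 and 0. The correlations of deviations between same-numbered libraries were 0.03, -0.07 and -0.02, and library 1 alone matched its own number best. Irf3 turned from its main log2 fold change of 0.67 to -0.11 with coding transcripts alone. Some fold changes near 0 also turned their sign, none of them called in either setting. With coding transcripts alone these were Irf2 at -0.039, Irf5 at 0.0026 and Irf8 at -0.086. With quantile normalization they were Irf2 at -0.013 and Irf8 at -0.12, and without mitochondrial genes Irf5 at 0.0021. On leaving out 1 library, the log2 fold change ranged from -0.035 to 0.12 for Irf2, from -0.15 to 0.091 for Irf5, from -0.54 to 0.14 for Irf7, from -0.063 to 0.10 for Irf8 and from -0.0083 to 0.31 for Irf9. The cause was not tested. The share of Irf3 outside coding transcripts stayed 23.2 to 30.9 points higher on leaving out any 1 library, an alternative added after the data were seen. With coding transcripts alone, Ifi27 was the one type I target called lower (log2 fold change -0.32).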

Other observations

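The 5 genes with profiles nearest to that of Irf7 were looked up after its values had been seen. They were Gbp9, Zbp1, Ifi44, Herc6 and Gbp3, at Euclidean distances of 0.405, 0.405, 0.430, 0.445 and 0.446, and all belong to the pathway lists. Ifi44 had 5.93, 2.11 and 1.04 TPM with AAV-Leptin-GFP against 2.82, 2.01 and 5.61 TPM with AAV-GFP, and Gbp3 had 13.7, 5.92 and 5.77 TPM with AAV-Leptin-GFP against 12.4, 6.91 and 14.7 TPM with AAV-GFP. For both genes, as for Irf7, AAV-Leptin-GFP library 1 and AAV-GFP library 3 were the highest of their groups. Their choice by likeness to Irf7 over these libraries fixes that likeness, so it is a description.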
